A study of Caenorhabditis briggsae with 6 samples.

Results

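The genes described here are 5 cell division and DNA replication genes of *Caenorhabditis briggsae*, out of 23169 genes counted by RNA-seq: Cbr-let-99 (WBGene00031550, CBG10071), Cbr-mat-3 (WBGene00033522, CBG12598), Cbr-such-1 (WBGene00034055, CBG13271), Cbr-mcm-6 (WBGene00031483, CBG09994) and Cbr-pri-2 (WBGene00030465, CBG08720). They were picked by name for their roles in mitosis or DNA replication. Results of the genotype comparison in these same libraries were already known, so the genes are treated as chosen on it. Their differences between genotypes, and the calls given for them, are therefore a description and carry no test. The libraries came from whole hermaphrodites in the L3 stage, kept at 20 °C on OP50 bacteria after bleach synchronization. The wild type was strain AF16, with 3 libraries, and the mutant was strain PS9217, which carries Cbr-ivph-3(sy5216), an allele with a premature stop codon, also with 3 libraries. The mutant is a single strain with a single allele, and the other alleles of the gene were not profiled in these libraries. Cbr-ivph-3 belongs to a gene family restricted to *Caenorhabditis*.

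In *C. elegans*, from which these roles are known, LET-99 sits in a band at the cell cortex and helps position the mitotic spindle through G protein signalling and the force generators that pull on astral microtubules. MAT-3 and SUCH-1 are subunits of the anaphase-promoting complex, the ubiquitin ligase that marks securin and cyclins for destruction and so starts anaphase. MCM-6 is a subunit of the ring helicase that unwinds DNA at replication origins, and PRI-2 is the large subunit of the primase that lays down the RNA primers for DNA polymerase alpha. In an L3 larva the dividing cells include the proliferating germ line, the somatic gonad, seam cells and the vulval precursor cells.

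Library sums were 24.6 to 25.8 M counts in wild type and 22.8 to 30.9 M counts in the mutant, and every member had at least 118 counts in every library. Levels are given as CPM, the count over the library size on a per-megacount scale, with library sizes scaled by the TMM method (trimmed mean of M values). Differences are log2 fold changes of mutant over wild type from edgeR's quasi-likelihood fit over the 14241 genes that had enough counts. The fit prints no standard error (SE). The SE given here is the absolute log2 fold change divided by the square root of the F statistic, and is approximate. A gene was called at a Benjamini-Hochberg adjusted p under 0.05. Of all tested genes, 11.7% were called higher and 9.80% lower. Cbr-ivph-3 transcript itself was at 33.0 to 36.5 CPM in wild type and at 20.9 to 21.0 CPM in the mutant. Mutant replicate 1 stood apart from mutant replicates 2 and 3, and without it 31.1% of 14476 tested genes were called higher and 28.6% lower. In these bulk samples, fewer cells of a type and less RNA per cell cannot be told apart.

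Of the 5 genes, Cbr-let-99, Cbr-mat-3 and Cbr-such-1 were called higher in the mutant, and Cbr-mcm-6 and Cbr-pri-2 did not pass. In all 5 the mutant libraries lay wholly on one side of the wild-type libraries, with 4 genes higher and 1 lower. Over all tested genes, 22.2% had every mutant library above every wild-type library and 20.1% had every mutant library below. Since the genes were chosen on this comparison, nothing is read from their counts against these shares.

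Cbr-let-99, the spindle-positioning gene, was at 7.20, 6.69 and 5.17 CPM in wild-type replicates 1, 2 and 3. It was at 48.4, 46.9 and 46.8 CPM in mutant replicates 1, 2 and 3. Every mutant library was far above every wild-type library, and mutant replicate 1 was level with the other mutant libraries. The mean was 6.36 ± 1.06 CPM (SD, n = 3) in wild type and 47.4 ± 0.906 CPM (SD, n = 3) in the mutant, a log2 fold change of 2.90 (SE 0.16), or 7.46-fold. By the size of this difference it ranked at place 190 among the 14241 tested genes, while the other 4 genes ranked between place 2944 (Cbr-such-1) and place 8729 (Cbr-pri-2). The coefficient of variation was 16.7% in wild type and 1.91% in the mutant.

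Cbr-mat-3, which encodes a subunit of the anaphase-promoting complex related to yeast Cdc23, was at 21.5, 21.7 and 22.02 CPM in wild type and at 36.8, 30.6 and 30.9 CPM in the mutant. The wild-type libraries were tightly grouped, and mutant replicate 1 was the highest of the 6 libraries. The mean went from 21.7 ± 0.271 CPM to 32.8 ± 3.498 CPM (SD, n = 3 per genotype). The log2 fold change was 0.59 (SE 0.12), or 1.51-fold.

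Cbr-such-1, whose product is related to the Apc5 subunit of the same complex, was at 11.9, 10.4 and 10.8 CPM in wild type and at 23.7, 17.3 and 16.9 CPM in the mutant. Again the genotypes did not overlap and mutant replicate 1 was the highest. The mean went from 11.04 ± 0.786 CPM to 19.3 ± 3.83 CPM (SD, n = 3 per genotype). The log2 fold change was 0.81 (SE 0.17), or 1.75-fold. The log2 fold changes of both anaphase-promoting complex genes were smaller without mutant replicate 1, at 0.49 (SE 0.08) for Cbr-mat-3 and 0.62 (SE 0.10) for Cbr-such-1.

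Leaving out any 1 of the 3 wild-type libraries ended the call of both genes, with log2 fold changes of 0.54 to 0.56 for Cbr-mat-3 and 0.74 to 0.83 for Cbr-such-1. The call of Cbr-mat-3 was also lost without mutant replicate 2 (0.64) or mutant replicate 3 (0.63). Cbr-let-99 was called in each of the 14 alternative settings. These calls describe refits of the same libraries and are no test of genes chosen with the results known.

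Cbr-mcm-6, the helicase subunit gene, was at 99.0, 86.2 and 90.8 CPM in wild type and at 80.9, 67.0 and 64.4 CPM in the mutant. It was the 1 member whose mutant libraries all lay below the wild-type libraries, and the smallest gap, between mutant replicate 1 and wild-type replicate 2, was narrow. The mean was 92.0 ± 6.47 CPM in wild type and 70.8 ± 8.90 CPM in the mutant (SD, n = 3 per genotype). The log2 fold change was -0.38 (SE 0.14), a mutant level 0.770 times that of the wild type. Without mutant replicate 1 the log2 fold change was -0.49 (SE 0.09), and the gene was then called lower. In the RefSeq annotation Cbr-srxa-10, named for a family of chemoreceptor genes, overlaps Cbr-mcm-6, so reads of the overlapping stretch may not all belong to the helicase gene.

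Cbr-pri-2, the primase large subunit gene, was at 27.2, 27.9 and 26.8 CPM in wild type and at 31.8, 34.5 and 33.4 CPM in the mutant. All mutant libraries were above all wild-type libraries, and mutant replicate 1 was the lowest of the mutant libraries, unlike in the other 4 genes. The mean went from 27.3 ± 0.553 CPM to 33.2 ± 1.37 CPM (SD, n = 3 per genotype). The log2 fold change was 0.28 (SE 0.11), or 1.22-fold. Without mutant replicate 1 the log2 fold change was 0.31 (SE 0.08), and the gene was then called higher. It was also called higher under scaling by library totals (0.60).

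**Figure D1:**
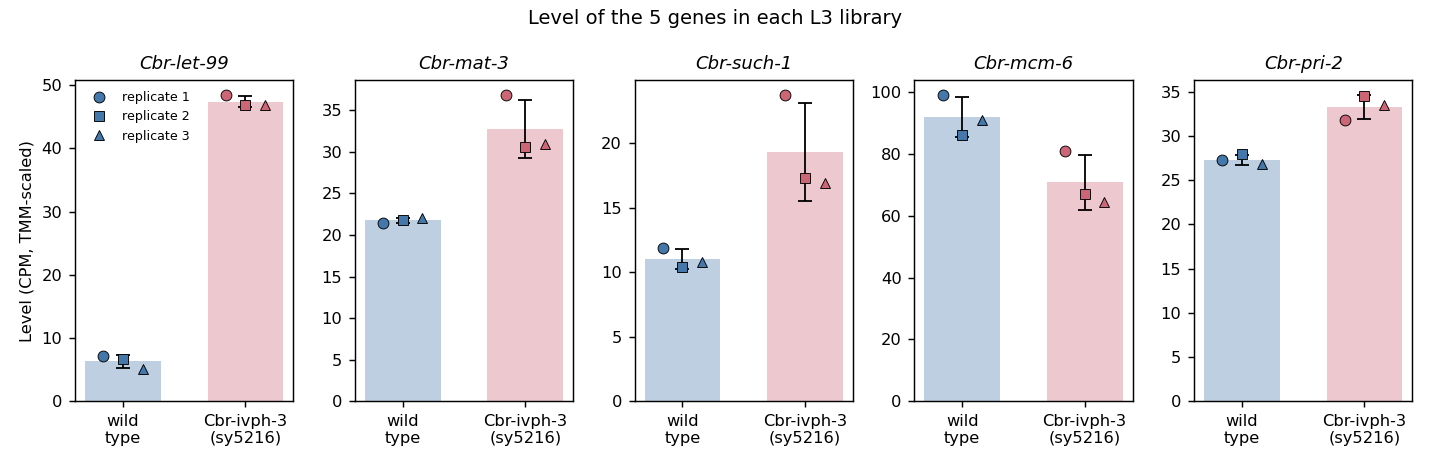
Level of each of the 5 genes in CPM with TMM-scaled library sizes (vertical axes from 0, a scale of its own for each gene) in the 3 wild-type (blue) and 3 mutant (red) libraries. Bars are means, error bars are the SD (n = 3) and symbols mark replicates: Cbr-let-99 goes from 5.17 to 7.20 CPM in wild type to 46.8 to 48.4 CPM in the mutant, while Cbr-mcm-6 alone is lower in the mutant, at 64.4 to 80.9 CPM.

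In all 14 alternative settings the direction of all 5 genes was the one given above. The log2 fold change ranged over these settings from 2.73 to 3.21 for Cbr-let-99, from 0.49 to 0.90 for Cbr-mat-3 and from 0.62 to 1.11 for Cbr-such-1. It ranged from -0.49 to -0.073 for Cbr-mcm-6 and from 0.23 to 0.60 for Cbr-pri-2. The value of Cbr-mcm-6 nearest to 0 and the highest values of the other 4 came from scaling by library totals, under which the median log2 fold change of all tested genes was 0.37 instead of 0.06. Relative to that median, Cbr-mcm-6 was at -0.44 under both scalings, Cbr-pri-2 at 0.23 under both, and Cbr-let-99 at 2.84 under both.

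The other genes of the same processes were taken from lists of 210 gene symbols for cell division and replication, members included. Like the members, the lists were chosen with earlier results of these data known. An identifier in the count table could be paired with 55 of them, since the pairing rests on the study's own lists of changed genes. The 55 were the 5 members, 42 genes that the study had called in other *C. briggsae* mutants, and 8 genes that entered only because the study had called them in these very libraries. The 42 are counted below, and all were tested. The 8 are given as values only. The reference share for the 42 is that of the 1366 tested genes with the same way of entry, of which 33.8% were called, 259 genes higher and 203 genes (14.9%) lower. They are called the reference genes below.

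Of these 42 genes, 3 were called higher, 0 lower and 39 did not pass. At an unadjusted p under 0.05, 4 were higher and 0 lower in edgeR, and at the adjusted threshold DESeq2 called 3 higher and 0 lower and limma-voom 2 higher and 0 lower. The median log2 fold change was -0.01 over the 42 genes, 0.10 over the reference genes and 0.06 over all tested genes, with median SEs of 0.29, 0.23 and 0.22. The mutant libraries lay above all wild-type libraries in 5 of the 42 genes, and the genotypes overlapped in 37. Of the reference genes 28.4% had all mutant libraries above and 24.3% had them below. The 5 genes were Cbr-emb-1, Cbr-apc-10, Cbr-bmk-1, Cbr-mei-2 and Cbr-mis-12.

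The overlap had a common form: in 25 of the 42 genes mutant replicate 1 was above every wild-type library while mutant replicates 2 and 3 were below every wild-type library. This form was seen in 15.3% of the reference genes and 9.60% of all tested genes. Since the genotypes did not overlap in any of the 5 members, none of them could show it. Mutant replicate 1 exceeded both other mutant libraries in 41 of the 42 genes, against 54.9% of the reference genes and 44.3% of all tested genes. The log2 ratio of mutant replicate 1 to the mean of mutant replicates 2 and 3 had a median of 0.94 over the 42 genes (range -0.32 to 2.42), of 0.14 over the reference genes and of -0.05 over all tested genes. Over the 5 members the same ratio had a median of 0.26, from -0.09 for Cbr-pri-2 to 0.46 for Cbr-such-1. As the members were chosen on the comparison of genotypes, nothing is read from their lower ratio.

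The summed level of the 42 genes was 1982, 1729 and 1886 CPM in the wild-type libraries and 2948, 1454 and 1407 CPM in the mutant libraries. Mutant replicate 1 was thus above the wild type and the other mutant libraries below it. Without mutant replicate 1, 22 of the 42 genes were called lower, 3 higher and 17 did not pass, with a median log2 fold change of -0.35. In the same fit 37.7% of the reference genes were called lower and 32.9% higher, with a median log2 fold change of -0.05. Whether mutant replicate 1 or the other mutant libraries better stand for this genotype at L3 was not tested.

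**Figure D2:**
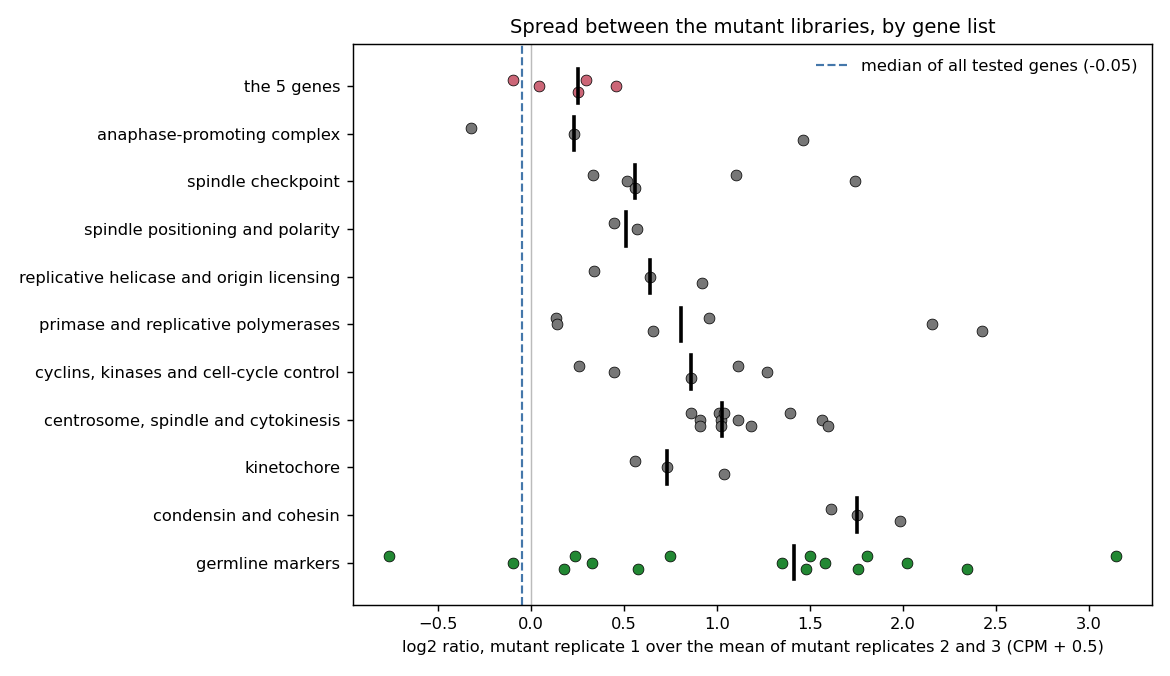
Log2 ratio of mutant replicate 1 to the mean of mutant replicates 2 and 3, on CPM + 0.5 (horizontal axis), for the 5 genes (red), the other cell division and replication genes by list (grey) and germline markers (green), with 1 point per gene and a black bar at each median. The 5 genes, which were chosen on the comparison of genotypes, lie between -0.09 and 0.46. The lists of the other cell division genes have medians of 0.23 to 1.75, and the dashed line marks the median of all tested genes at -0.05.

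Germline markers were highest as a sum in mutant replicate 1, though not each of them. Of 29 listed germline markers 18 had an identifier, and 16 of these entered in the same way as the 42 cell division genes. This list was chosen with earlier results of these data known, so its counts beside the reference shares are a description only. The summed level of the 16 was 678 to 690 CPM in wild type and 1900, 1003 and 1017 CPM in mutant replicates 1, 2 and 3. The abundant genes Cbr-gld-1 and Cbr-prg-1 weigh heavily in this sum. In wild type they were at 83.3 to 94.3 and 120 to 133 CPM. In mutant replicates 2 and 3 Cbr-gld-1 was at 231 and 238 CPM and Cbr-prg-1 at 295 and 299 CPM. Of the 16, 7 were called higher, 0 lower and 9 did not pass, where 259 of the 1366 reference genes were called higher and 14.9% lower, and at an unadjusted p under 0.05 the counts were 7 and 0. Their median log2 fold change was 0.95. Mutant replicate 1 was above both other mutant libraries in 14 of the 16, against 54.9% of the reference genes. The form described above was seen in 7, against 15.3%. The called genes included Cbr-nos-1, whose *C. elegans* counterpart encodes an RNA-binding regulator of germ cells, at a log2 fold change of 4.29, and the meiotic genes Cbr-syp-2 at 3.65 and Cbr-msh-5 at 2.78. For these named genes the log2 ratio of mutant replicate 1 to the other mutant libraries was -0.09, -0.76 and 0.24, respectively, against a median of 1.41 over the 16. Without mutant replicate 1, 8 of the 16 were called higher and 7 lower, beside 32.9% and 37.7% of the reference genes. The 7 were Cbr-glp-1, Cbr-gld-3, Cbr-pgl-1, Cbr-glh-4, Cbr-mex-5, Cbr-htp-3 and Cbr-syp-1. Of these, Cbr-pgl-1 was at 140 to 158 CPM in wild type and at 248, 59.5 and 61.8 CPM in the mutant. Cbr-mex-5 was at 19.4 to 21.0 CPM in wild type and at 51.8, 5.64 and 5.18 CPM in the mutant.

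The only sperm marker with an identifier, Cbr-fer-1, was at 0.131 to 0.312 CPM in wild type, at 13.4 CPM in mutant replicate 1 and at 0.149 and 0.112 CPM in mutant replicates 2 and 3. Markers of body muscle (4 genes) and intestine (4 genes) all entered through their own listing as changed in these libraries, as did 4 of the 6 epidermis and seam markers, so nothing is read from a difference in their levels between genotypes. The muscle markers summed to 6105 to 6629 CPM in wild type and 4501, 2319 and 2503 CPM in the mutant libraries, and the intestine markers to 1781 to 1830 CPM and then 836, 660 and 663 CPM. The epidermis genes that entered otherwise, the collagen genes Cbr-rol-6 and Cbr-sqt-3, had log2 fold changes of 0.0025 and -0.67 and did not pass the test. Cbr-sqt-3 was at 1377 to 1801 CPM in wild type and at 1778, 583 and 621 CPM in mutant replicates 1, 2 and 3. Without mutant replicate 1 the log2 fold change was -1.40 (SE 0.13) for Cbr-sqt-3 and -0.08 (SE 0.13) for Cbr-rol-6. The neuron marker Cbr-flp-1 was at 63.6 to 95.3 CPM in wild type and at 68.5, 156 and 157 CPM in the mutant. No marker with an identifier was at 0 in any library. The part that a different share of germ cells had in the values of the 5 genes was not tested.

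Of the 3 counted genes in the anaphase-promoting complex list, 2 had every mutant library above every wild-type library, against 28.4% of the reference genes. They were the subunit genes Cbr-emb-1 and Cbr-apc-10, with Cbr-sep-1, below, the other counted gene. Cbr-emb-1, which encodes a small subunit, was at 12.4, 15.2 and 13.4 CPM in wild type and at 19.7, 24.8 and 24.5 CPM in the mutant, with a log2 fold change of 0.75 (SE 0.15, edgeR adjusted p = 0.0157). Its mutant replicate 1 was the lowest mutant library, the opposite of Cbr-mat-3 and Cbr-such-1. The call was lost without wild-type replicate 1 (log2 fold change 0.64) or 3 (0.69) and without mutant replicate 2 (0.69) or 3 (0.70).

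Cbr-apc-10, whose product helps recruit substrates to the complex, was at 2.94, 3.57 and 3.81 CPM in wild type and at 5.37, 4.82 and 4.17 CPM in the mutant. Its log2 fold change of 0.48 (SE 0.20, edgeR adjusted p = 0.137) did not pass the test. Cbr-apc-11, the RING-finger subunit gene, entered through its call in these libraries and was at 34.9, 34.5 and 31.5 CPM in wild type and at 60.8, 78.4 and 77.9 CPM in the mutant, a log2 fold change of 1.11 (SE 0.14). The subunit genes with an identifier are thus 2 members, 2 counted genes and 1 gene chosen by its call, of 15 symbols in a list that also holds activators and substrates.

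Cbr-sep-1 encodes separase, the protease that the complex frees by destroying securin. It was at 28.9, 22.9 and 25.96 CPM in wild type and at 45.2, 16.6 and 15.6 CPM in the mutant, a log2 fold change of -0.01 (SE 0.42). Here mutant replicate 1 was the highest and the other mutant libraries the lowest of the 6. Products of the spindle checkpoint genes hold the complex inactive until chromosomes are attached. These genes followed the same form in 4 of 5 cases, beside 15.3% of the reference genes. Of the 5, 0 were called, beside 33.8% of the reference genes. Their log2 ratio of mutant replicate 1 to the other mutant libraries ran from 0.33 to 1.74, the latter for Cbr-bub-1. For the checkpoint kinase gene Cbr-bub-1 the levels were 86.6, 89.1 and 86.0 CPM in wild type and 123, 35.1 and 37.5 CPM in the mutant.

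Of the partners of LET-99 at the cortex, Cbr-lin-5, whose product links the cortex to dynein, was at 55.1, 58.0 and 50.4 CPM in wild type and at 75.9, 51.6 and 50.3 CPM in the mutant, with a log2 fold change of 0.12 (SE 0.19). Cbr-gpr-2, whose product binds G alpha, was at 29.4, 34.1 and 28.5 CPM in wild type and at 42.3, 31.1 and 30.7 CPM in the mutant, with a log2 fold change of 0.18 (SE 0.17). Neither passed the test, and in both mutant replicate 1 was the highest library. Against these values, the log2 fold change of Cbr-let-99 was 2.90 with the 3 mutant libraries level.

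Genes that entered through their own call in these libraries were the G alpha gene Cbr-goa-1 at a log2 fold change of -0.85 (SE 0.14), the G beta gene Cbr-gpb-1 at -1.02 (SE 0.15) and Cbr-par-5, which encodes a 14-3-3 protein of the polarity system, at -0.52 (SE 0.12). These genes were lower in every mutant library, in the direction opposite to Cbr-let-99. Of all tested genes 20.1% had every mutant library below. Since these genes entered through their call, nothing is read from the contrast. Cbr-gpb-1 was at 509, 490 and 492 CPM in wild type and at 293, 216 and 225 CPM in the mutant.

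Beside Cbr-mcm-6, 1 other gene of the helicase ring had an identifier, and it entered through its listing for these libraries. Cbr-mcm-3 was at 79.1, 85.4 and 81.4 CPM in wild type and at 70.6, 53.2 and 50.3 CPM in the mutant, a log2 fold change of -0.50 (SE 0.16). Like Cbr-mcm-6, it was lower in every mutant library with mutant replicate 1 nearest to wild type, but given its way of entry nothing is read from this. Cbr-gmn-1, the gene for geminin, an inhibitor of origin licensing, entered in the same way and was at 10.9, 13.4 and 12.4 CPM in wild type and at 25.41, 19.9 and 18.96 CPM in the mutant, a log2 fold change of 0.81 (SE 0.16).

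The 3 counted genes of the helicase and licensing list all overlapped between genotypes and were not called. Cbr-orc-3, a subunit gene of the origin recognition complex, had a log2 fold change of 0.20 (SE 0.15). The value was 0.18 (SE 0.28) for Cbr-mus-101, whose product loads the helicase activators. It was -0.11 (SE 0.21) for Cbr-cdt-2, which encodes the adaptor of a ubiquitin ligase that acts on licensing factors.

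Of the polymerase genes, Cbr-pola-1 encodes the catalytic subunit of DNA polymerase alpha, the enzyme that primase works with. It was at 86.1, 64.7 and 81.6 CPM in wild type and at 104, 53.9 and 52.9 CPM in the mutant, a log2 fold change of -0.14 (SE 0.29). Cbr-pri-2 differed from it in form, with all mutant libraries above wild type and mutant replicate 1 the lowest of them. The log2 ratio of mutant replicate 1 to the other mutant libraries was 0.96 for Cbr-pola-1 and -0.09 for Cbr-pri-2.

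The leading-strand polymerase gene Cbr-pole-1 spread most between the mutant libraries, at 120, 21.8 and 22.3 CPM beside 65.4, 45.8 and 67.7 CPM in wild type. Its log2 fold change was -0.12 (SE 0.67) with all libraries and -1.44 (SE 0.17) without mutant replicate 1. Of the 6 counted genes of the primase and polymerase list 0 were called in either direction, and 3 were called lower without mutant replicate 1, a fit in which 37.7% of the reference genes were called lower. Cbr-pole-2, which encodes the second subunit of that polymerase and entered through its listing for these libraries, had a log2 fold change of -0.84 (SE 0.24).

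The remaining called genes among the 42 were both in the spindle group. Cbr-bmk-1, the gene of a kinesin motor of the spindle, was at 52.7, 44.3 and 52.6 CPM in wild type and at 191, 96.2 and 92.1 CPM in the mutant, with a log2 fold change of 1.34 (SE 0.30, edgeR adjusted p = 0.0235). Its log2 fold change without mutant replicate 1 was 0.91 (SE 0.10). The call was lost without wild-type replicate 1 (1.35), 2 (1.24) or 3 (1.35).

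Cbr-mei-2, which encodes a subunit of the microtubule-severing enzyme katanin that works in the meiotic spindle, was at 2.00, 2.59 and 2.28 CPM in wild type and at 7.34, 3.88 and 3.75 CPM in the mutant, with a log2 fold change of 1.12 (SE 0.32, edgeR adjusted p = 0.0482). Its call was the least stable of the 3, and was lost in 9 of 14 alternative settings. These included each left-out library other than mutant replicate 1, with log2 fold changes of 0.998 to 1.29. Of the 3 counted kinetochore genes, the 5 cyclin and kinase genes and the 3 condensin and cohesin genes, 0 were called with all libraries, and 2, 2 and 3 of them respectively were called lower without mutant replicate 1, beside 37.7% of the reference genes. The kinetochore gene Cbr-kbp-5, which entered through its own call in these libraries, was at 7.12, 9.24 and 8.19 CPM in wild type and at 12.2, 17.1 and 17.9 CPM in the mutant, a log2 fold change of 0.94 (SE 0.20).

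**Figure D3:**
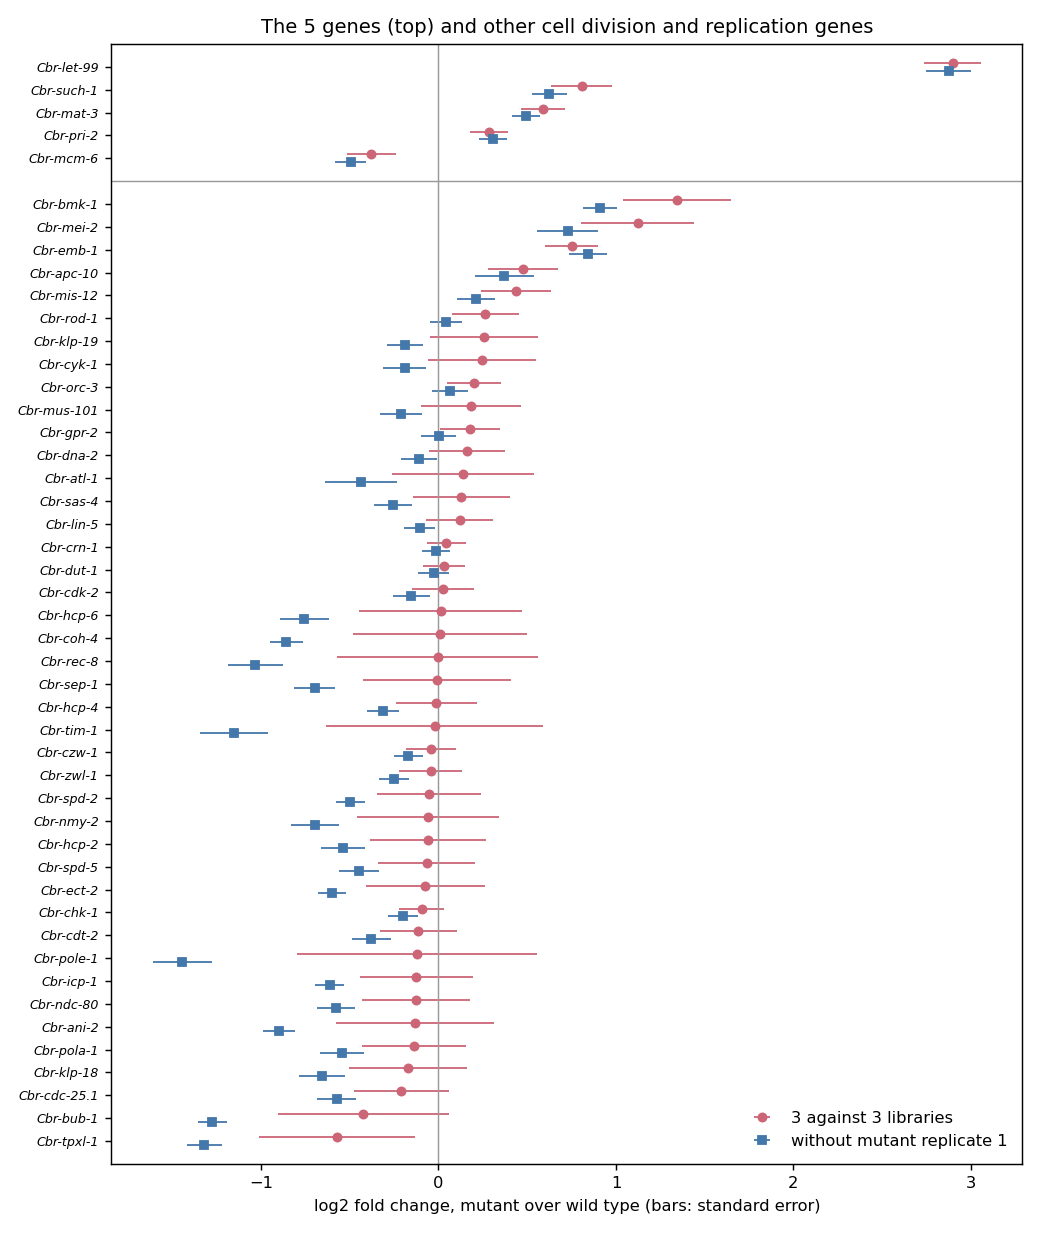
Log2 fold change of mutant over wild type (horizontal axis, bars are the SE) for the 5 genes (above the line) and the 42 other cell division and replication genes (below it), fitted on 3 against 3 libraries (red circles) and without mutant replicate 1 (blue squares). Among the 5 genes Cbr-let-99 goes from 2.90 to 2.87, Cbr-such-1 from 0.81 to 0.62 and Cbr-mcm-6 from -0.38 to -0.49, while the median of the 42 goes from -0.01 to -0.35.

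The genes whose profile over the 6 libraries was most like that of each member were found among 1704 tested genes with a symbol and a mean of at least 5 CPM. Likeness was the root-mean-square (RMS) difference between log2(CPM + 0.5) profiles, each centred on its wild-type mean. Part of the compared genes have a symbol here only because the study had called them in these libraries. For Cbr-let-99 the closest gene was Cbr-msh-5, a meiotic crossover gene, at an RMS difference of 0.208, followed by Cbr-sip-1, which encodes a small heat shock protein, at 0.220 and by Cbr-him-8, a gene for X chromosome pairing in meiosis, at 0.241. Cbr-msh-5 was at 13.5, 10.8 and 13.4 CPM in wild type and at 95.9, 83.2 and 79.4 CPM in the mutant. It is 1 of the germline markers above. Cbr-sip-1 was low in wild type, at 1.47, 1.56 and 1.01 CPM, where the added 0.5 lessens differences in the log2 profile. It was at 17.8, 11.6 and 14.3 CPM in the mutant, with a fitted log2 fold change of 3.43 beside 2.90 for Cbr-let-99.

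For Cbr-mat-3 the closest genes were Cbr-fog-1, which specifies sperm fate in germ cells, at 0.0598, Cbr-sulp-8, named as a sulfate permease family member, at 0.0670 and the nuclear hormone receptor gene Cbr-nhr-134 at 0.0676. For Cbr-such-1 they were Cbr-pek-1, a kinase gene of the endoplasmic reticulum stress response, at 0.0682, Cbr-nrde-1, a gene of nuclear RNA interference, at 0.0926 and Cbr-mam-3 at 0.101. For Cbr-mcm-6 they were Cbr-rha-2, a helicase gene, at 0.0309, Cbr-dpf-3, a peptidase gene, at 0.0388 and the choline kinase gene Cbr-ckc-1 at 0.0395. For Cbr-pri-2 they were Cbr-mocs-1 at 0.0667, Cbr-madf-8 at 0.0807 and the syntaxin gene Cbr-syx-7 at 0.0839. Of the 15, Cbr-fog-1, Cbr-sulp-8, Cbr-nhr-134, Cbr-pek-1, Cbr-mam-3, Cbr-rha-2, Cbr-dpf-3, Cbr-ckc-1 and Cbr-syx-7 entered only through their listing for these libraries. None of the 15 was on the cell division and replication lists. Only 55 listed symbols had an identifier, so few of the 1704 compared genes could be, and nothing is read from this.

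**Figure D4:**
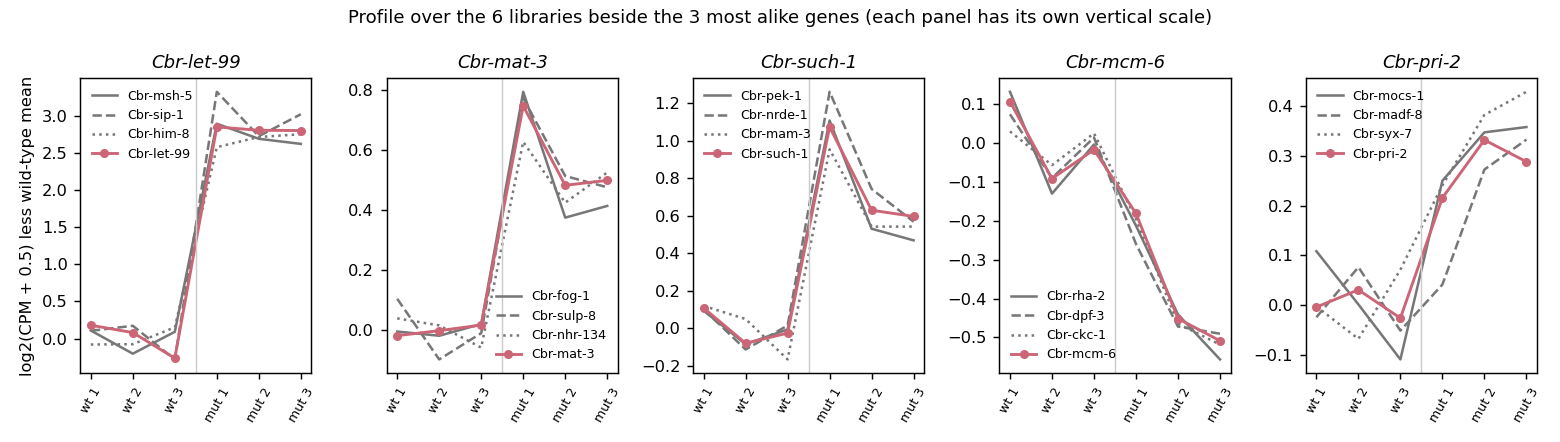
Profile of each of the 5 genes (red) and the 3 genes most like it (grey) over the 6 libraries, as log2(CPM + 0.5) less the wild-type mean (vertical axis, a scale of its own in each panel); wt is wild type, mut is the mutant, and lines join libraries only to guide the eye. The closest profile to Cbr-mcm-6, that of Cbr-rha-2, differs by an RMS of 0.0309, and the closest to Cbr-let-99, that of Cbr-msh-5, by 0.208.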

How the data were processed

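Total RNA from 3 wild-type and 3 mutant samples, which the study describes as independent biological replicates, was sequenced as paired-end reads. The authors processed the reads with MultiQC, STAR and featureCounts against the WS279 genome and gene set, with tool versions not given in the sources used here. The deposited values are raw counts of read pairs per gene, whole numbers in every library. Counting used a reverse-stranded setting while the kit named in the labels does not mark strand, so overlapping and antisense genes are uncertain. The authors' own comparisons (fold changes and p-values) were not used, except that their gene lists paired locus names and symbols with 3900 identifiers in the count table. Of these, 1488 came from lists other than that of genes changed only in Cbr-ivph-3.

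The members and gene lists were chosen with earlier results of these data known. The test was edgeR 4.0.16 in R 4.3.3: TMM scaling, filterByExpr, glmQLFit with robust estimation, glmQLFTest and Benjamini-Hochberg adjustment over all 14241 tested genes at 0.05, with genotype as the only term. Alternatives were other scalings (library totals, upper quartile, DESeq2 size factors), other filters (1 count in any library, or 10 in every library), other tools (DESeq2 1.42.0 and limma-voom, limma 3.58.1), a replicate block and each library left out. Named genes were the members, their complexes and partners, up to 4 called genes per further list, the 3 genes most alike, and the 2 nearest annotated genes on each side. Levels were compared within genes only, since no gene lengths were used here. Promoter and protein sequences were not analysed here.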

Additional observations from a re-analysis of the deposited data

How the results depend on the processing

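The 5 genes kept their direction in all 14 alternatives. Under library totals, which shift the median of all tested genes to 0.37, the log2 fold changes were 3.21 for Cbr-let-99, 0.90 for Cbr-mat-3, 1.11 for Cbr-such-1, -0.073 for Cbr-mcm-6 and 0.60 for Cbr-pri-2, which was then called, so that 4 of the 5 members and 8 of the other 42 genes were called higher. Under upper-quartile scaling Cbr-pri-2 was at 0.37. With each library left out in turn, the count of all called genes ran from 1240 (without wild-type replicate 1) to 8644 (without mutant replicate 1), against 3062 with all libraries. Over the same omissions, members called higher ran from 1 to 4 and called lower from 0 to 1, other genes called higher from 0 to 3 and lower from 0 to 22. The log2 fold change ran from 2.73 to 2.95 for Cbr-let-99 and from 0.23 to 0.31 for Cbr-pri-2. The highest counts of members and of genes called lower came without mutant replicate 1. The cause was not tested.

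Same-numbered libraries had correlations of their deviations of 0.152, 0.174 and -0.0667, which cannot settle whether the numbers pair the samples. The fit with a replicate block called 2336 genes, 3 of the 5 members higher and 0 lower, and 2 of the other 42 higher and 0 lower. Replicate 1 against the other mutant libraries, less the same median over all tested genes, was 0.99 with TMM and 0.97 with library totals over the 42 genes, a difference chosen after seeing the data. Of the 15 most alike genes, 14 were shared under library totals. With 3 libraries a genotype, a difference larger than its SE need not be resolved. Cbr-mcm-6, at -0.38 (SE 0.14), did not pass.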

Other observations

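The 2 nearest annotated genes on each side of each member were looked up in the RefSeq gene order, 20 genes in all, of which 8 had an identifier and 7 were tested. Next to Cbr-mat-3 lies Cbr-mut-2, whose *C. elegans* counterpart encodes a nucleotidyltransferase of small RNA pathways. It was at 4.89, 4.33 and 4.90 CPM in wild type and at 11.6, 11.6 and 10.5 CPM in the mutant. The mutant libraries were level and all above wild type, with a log2 fold change of 1.25 (SE 0.15, edgeR adjusted p = 0.00253).

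Around Cbr-such-1, Cbr-xpb-1, CBG25866 and Cbr-spe-6 overlapped between genotypes and did not pass the test. CBG13274, the second gene on the other side, was at 15.6, 16.1 and 19.7 CPM in wild type and at 22.3, 29.6 and 30.9 CPM in the mutant, with a log2 fold change of 0.69 (SE 0.18). It entered through its own call in these libraries, so no test is given. Its mutant replicate 1 was the lowest mutant library, unlike that of Cbr-such-1.

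Cbr-hmg-20, next to Cbr-pri-2, was at 17.6, 15.3 and 17.7 CPM in wild type and at 23.3, 18.96 and 17.1 CPM in the mutant and did not pass. Cbr-vha-14, a subunit gene of the vacuolar proton pump that lies 2 genes from Cbr-let-99, was at 528 to 534 CPM in wild type and at 192, 226 and 222 CPM in the mutant. It has an identifier here because the study had called it in these libraries. Its log2 fold change of -1.32 was opposite in sign to that of Cbr-let-99, but given its way of entry nothing is read from this.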
